A study of Mus musculus with 8 samples.

Results

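The cytosolic ribosome is built from a large and a small subunit, each an assembly of ribosomal RNA and ribosomal proteins. The genes for these proteins, named Rpl for the large and Rps for the small subunit, are among the most strongly expressed of growing cells, and many of their mRNAs begin with a run of pyrimidines, the 5' terminal oligopyrimidine (TOP) tract, through which mTORC1 signalling controls their translation. Some members have a close paralog: Rpl22 and its paralog Rpl22l1, for example, encode exchangeable RNA-binding proteins of the large subunit. In the embryonic and newborn cortex, ribosome production is high in dividing progenitors and in growing neurons.

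Members were taken by name: every array probe that was not a control and whose gene name is a ribosomal protein symbol, Rplp0, Rplp1, Rplp2 or Rpsa, with the ribosomal S6 kinases left out. This gave 189 probes of 84 genes, of 55681 probes on the array. Of these, 183 probes of 81 genes were well above background on all 8 arrays, and these 81 genes (48 of the large and 33 of the small subunit) were measured. The other 3 genes, Rpl3l, Rpl10l and Rpl39l, are paralogs known from muscle or testis, and their probes were well above background on 0 of 8 arrays. Of the Rpl6 probes, 1 was well above background on only 1 array, and the others were kept. The gene named Rps4y2 in the files is now called Rps4l and Rps3a is now Rps3a1.

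The study measured gene expression in the cortex of male C57BL/6NCr mice at postnatal day 1.5, in 4 control and 4 ischemia pups, each on its own Agilent array hybridised in a single colour. For ischemia, clips on the uterine arteries of the anesthetised mother stopped the blood flow for 14 min on day E16.5 of gestation. No genetic modification is listed for either group, and the labels do not give the mothers, a sham operation in controls, or which pups were littermates. P-values therefore measure the spread between these pups, and a litter effect cannot be told apart from it or from the group. The comparison asks how the brief loss of uterine blood flow before birth left cortical expression after birth.

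Levels are the processed signal divided by that array's 75th percentile over probes and put on the log2 scale, so 0 is the 75th percentile. A level depends on the probe, so levels of different genes are not ranked against each other. No spot was saturated (0 of all), and 47.6% to 51.7% of an array's spots were well above background. The 75th percentile ran from 271 to 348 in controls and from 317 to 346 in ischemia, with the lowest values on control 2 (271) and control 3 (286). All 8 arrays lay on 1 slide, the controls in one row and the ischemia arrays in the other, so row and group cannot be told apart. All 13 cortical neuron markers were well above background on every array, with a summed level of 444 to 473 in controls and 412 to 491 in ischemia. Meningeal markers (9 of 10 measured) summed to 4.53 to 6.04 in controls, and to 18.9 and 18.2 on ischemia 1 and 4 against 4.94 and 6.79 on ischemia 2 and 3. Choroid plexus markers (6 of 10 measured) summed to 3.55 to 4.03 in controls and to 134 on ischemia 4. In such bulk tissue, fewer cells of a type and less RNA per cell cannot be told apart.

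The starts of the genes are shown first, because the TOP tract is what the family is known for. RefSeq promoters (GRCm38.p6) matched 63 of the 84 genes. A tract, taken as a C at the annotated start followed by at least 4 pyrimidines on the gene's strand, stood at the start of 13 of these (20.6%), against 3.01% of 27025 genes in the table. The windows printed here run from upstream of the start into the first bases of the transcript. The tract is in capitals and its first base is the annotated start.
Rpl28, chr7:4792920-4792979, plus strand: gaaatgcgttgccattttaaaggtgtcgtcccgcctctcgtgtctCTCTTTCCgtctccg
Rps6, chr4:86857353-86857412, minus strand: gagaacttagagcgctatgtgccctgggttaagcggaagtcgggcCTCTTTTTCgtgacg
Rpl38, chr11:114668535-114668594, plus strand: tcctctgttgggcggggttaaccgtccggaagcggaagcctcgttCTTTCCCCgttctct
Rps18, chr17:33955651-33955710, minus strand: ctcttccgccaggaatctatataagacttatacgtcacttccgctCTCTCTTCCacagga
Rpl35, chr2:39005117-39005176, minus strand: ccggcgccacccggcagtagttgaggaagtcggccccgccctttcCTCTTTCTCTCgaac

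The other tracts began Rpl14, Rpl15, Rpl35a, Rplp2, Rps10, Rps15a, Rps21 and Rps27. The hexamer CTTTCC, on the gene's strand between 30 bases before and 50 after the start, was found in 18 of 63 genes (28.6%, against 4.36% of all) and can overlap a tract. The ETS-type core TTCCGG, on either strand of the 300-base promoter, was found in 35 (55.6%, against 16.7%). TATAAA, on the gene's strand between 40 and 10 bases before the start, was found in 1 (1.59%, against 2.51%). That gene was Rpl22l1, which also showed the largest difference between the groups, and its window (GRCm38.p6) is given with the hexamer in capitals, its first base at position -28 from the start.
Rpl22l1, chr3:28805463-28805522, plus strand: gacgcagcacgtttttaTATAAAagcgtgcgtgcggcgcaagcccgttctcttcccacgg
A match in these windows is a description, and a missing match says only that the letters are not there at the annotated start. The 13 genes with a tract had a median ischemia minus control difference of -0.08 (range -0.14 to -0.01), and the 47 measured genes without one a median of -0.06 (range -0.29 to 0.06).

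No ribosomal protein gene passed the test: 0 of 81 had an adjusted p under 0.05 (limma, Benjamini-Hochberg over 19745 genes), where 1 gene of all tested passed (0.00506%). The smallest adjusted p of a member was 0.253. At an unadjusted limma p under 0.05, 0 members were higher in ischemia (3.49% of all genes were) and 3 were lower, which is 3.7% of members against 6.97% of all genes. The 4 ischemia arrays lay wholly below the 4 control arrays for 4 members (4.94%, against 3.9% of all genes) and wholly above for 0 (2.36%). Neither share of members stands far from its background. The count of lower members with separated groups was 11 without control 4, and 8 without ischemia 1 and 4 together. Groups of fewer arrays separate more easily for any gene, and the shares over all genes in these runs are not given here.

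The differences of the members were small. They ran from -0.29 to 0.08, with a median of -0.05 against -0.02 for all genes, and 66 of 81 were within 0.1 of zero (81.5%, against 55.0% of all genes). Of the 81, 79 were within 0.2. Ischemia was the lower group for 72 of 81 members (88.9%, against 55.5% of all genes), with a median of -0.04 in the large subunit (41 of 48 lower) and -0.07 in the small subunit (31 of 33 lower). That direction held with each array left out in turn, though the number of lower members varied, and it turned under quantile normalization. The median deviation of members from their own means was 0.12 on both control 2 and control 3. It was -0.04 and -0.08 on controls 1 and 4, and -0.06 to 0.02 on the ischemia arrays. Leaving out 1 array keeps at least 1 of the high controls, so these runs cannot show whether the direction rests on them. The median was -0.03 without control 2 (57 of 81 lower, 70.4% against 53.8% of all genes). It was -0.03 without control 3 (52 lower, 64.2% against 54.9%) and -0.10 without control 4 (76 lower, 93.8% against 55.1%). Without ischemia 1 it was -0.07 (73 lower, 90.1% against 55.2%). With normexp background correction it was -0.03 (61 lower, 75.3% against 56.9%). Under quantile normalization it turned to 0.02 (29 lower, 35.8% against 52.5%). That normalization gives every array the same distribution, which can reduce a shift shared by bright probes, as most member probes are. Its part in the turn of sign was not tested.

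**Figure D1:**
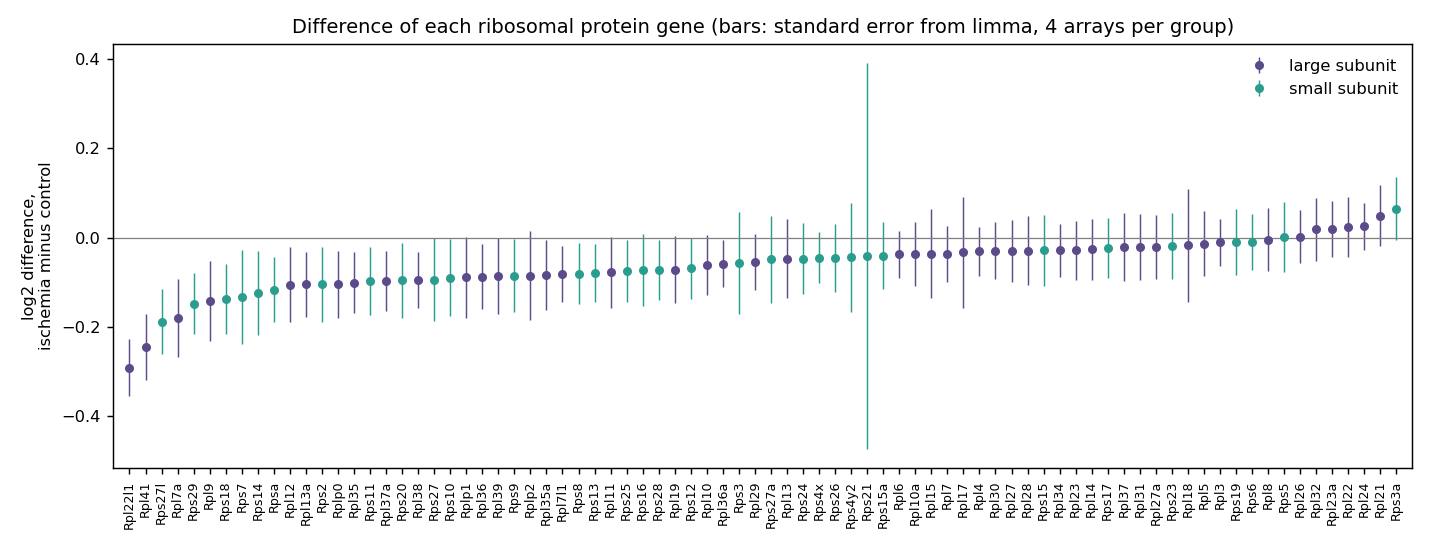
Log2 difference, ischemia minus control, of 80 of the 81 measured ribosomal protein genes in order of size, with the standard error from limma as bars (4 arrays per group). Of the genes plotted, 72 lie below zero with this scaling (29 of all 81 with quantile normalization), Rpl22l1 (-0.29) and Rpl41 (-0.25) stand lowest, and the bar of Rps21 (0.43) is the widest.

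Rpl22l1 is the paralog of Rpl22 and had the smallest p of the family. Its levels were 6.18, 6.07, 6.20 and 6.06 in controls 1 to 4 and 5.87, 5.90, 5.75 and 5.83 in ischemia 1 to 4. Every ischemia array lay below every control array. The difference was -0.29 ± 0.06 (SE), which is 18.2% lower on the linear scale, with an adjusted p of 0.253 (limma), so it did not pass. It was negative under every alternative processing tried, from -0.31 to -0.23, with adjusted p from 0.0975 to 0.559.

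Rpl22 itself, whose protein binds RNA and occupies the same place in the ribosome, showed no such separation. Its levels were 6.73, 6.57, 6.76 and 6.58 in controls and 6.69, 6.76, 6.61 and 6.68 in ischemia. The groups overlapped, and the difference was 0.02 ± 0.07 (adjusted p = 0.937, limma), a sign that turned without control 2, control 4 or ischemia 2. The 2 genes were measured by probes that share no run longer than 5 bases. The first 30 bases of each 60-base probe are shown to let them be compared, at mm9 positions from the array files.
Rpl22l1, chr3:28706237-28706296, plus strand: cagagtctgaggactaattggcctctgctt
Rpl22, chr4:151706515-151706574, plus strand: ggaggaagacgaggattaggacacattggt

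The change of the paralog relative to its core gene was read within each array, where the scaling of the array cancels. Only its shift between groups is meaningful, since probes differ in brightness. Rpl22l1 minus Rpl22 was -0.55, -0.50, -0.56 and -0.53 in controls and -0.82, -0.86, -0.87 and -0.85 in ischemia. The groups were far apart for their spread: SD was 0.03 in controls and 0.02 in ischemia. The shift was -0.31, with p = 0.0286 in the exact two-sided permutation test, the smallest that 4 against 4 arrays allow, and 0.143 after adjustment over the 5 measured pairs. Since no p below 0.0286 can be had, an adjusted p under 0.05 would have needed at least 3 of the 5 pairs to reach it. The shift lay between -0.35 and -0.30 in all alternatives run for the pairs. Against a second Rpl22 probe, chosen after its values were seen, it was -0.40, again with an exact permutation p of 0.0286. That contrast uses the same Rpl22l1 values, so it is not a separate reading of the shift. The pairs themselves were chosen with earlier results of these data known.

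A probe outside the family, named Gm15421 in the files, shares a run of 54 bases with the Rpl22l1 probe and was looked up after that was seen. Its levels were 5.84, 5.78, 5.91 and 5.60 in controls and 5.50, 5.56, 5.47 and 5.39 in ischemia. Its groups did not overlap either, and its difference was -0.30 ± 0.08 (adjusted p = 0.344, limma, among probes), or 18.8% lower. With that much shared sequence the transcripts behind these probes cannot be told apart, so the pair of spots does not count as readings of separate genes. Gm13196, which shares 43 bases with a Rpl22 probe, differed by -0.06 ± 0.08 with overlapping groups.

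**Figure D2:**
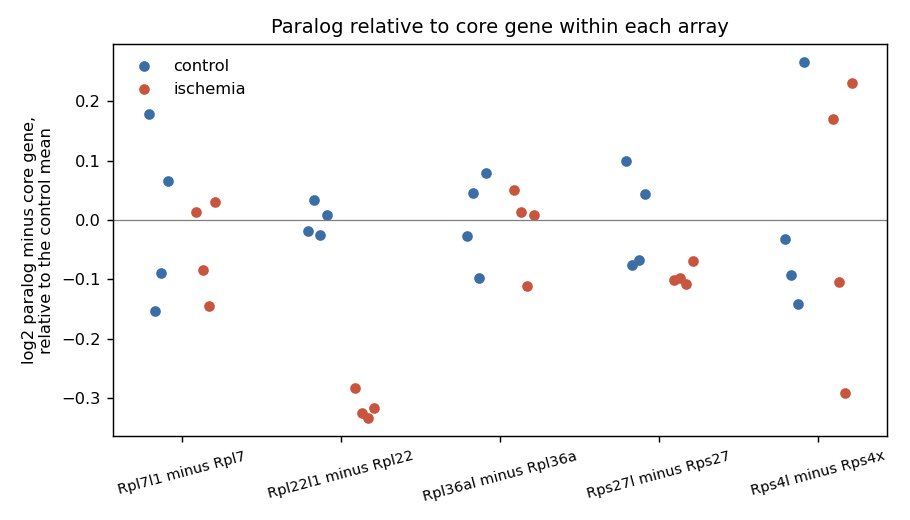
Log2 level of the paralog minus that of its core gene within each array, relative to the control mean, for the 5 measured pairs (blue, 4 control arrays; red, 4 ischemia arrays). In Rpl22l1 minus Rpl22 all 4 ischemia arrays lie about -0.31 from the controls, and in the other 4 pairs the groups overlap.

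The other pairs did not separate. Rps27l, a paralog of Rps27 known as a p53 target, differed from Rps27 by -3.71, -3.89, -3.88 and -3.77 in controls and -3.91, -3.91, -3.92 and -3.88 in ischemia. The shift was -0.09, with an exact permutation p of 0.0571 (adjusted 0.143). Rpl7l1 against Rpl7 shifted by -0.05 (exact permutation p = 0.629, adjusted 0.971). Rpl36al against Rpl36a shifted by -0.01 (exact permutation p = 0.857) and Rps4l against Rps4x by 0.00 (exact permutation p = 0.971). The last 3 signs are within the spread of the arrays, and each turned when single arrays were left out.

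Cell cycle markers moved with the same groups as Rpl22l1. Of 16 listed, 14 were measured, and all 14 were lower in ischemia (55.5% of all genes were). At an unadjusted limma p under 0.05, 9 were lower (6.97% of all genes were), and 0 passed after adjustment. Their summed level was 50.5 to 58.1 in controls and 44.2 to 49.7 in ischemia, without overlap. Blood markers (6 of 10 measured) were also all lower, with sums of 220 to 401 in controls and 168 to 277 in ischemia, which overlap. At an unadjusted limma p under 0.05, 4 of 10 microglia markers were higher (3.49% of all genes were) and 2 were lower. Of 10 endothelial markers, 2 were higher and 1 was lower by the same rule. In both lists 0 passed after adjustment. The part of any of these marker lists in the Rpl22l1 difference was not tested. Without ischemia 1 and 4, the arrays with high meningeal or choroid plexus markers, the Rpl22l1 difference was -0.30.

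Rpl41, a very short peptide of the large subunit, came next. Its levels were 9.44, 9.60, 9.58 and 9.38 in controls and 9.36, 9.25, 9.17 and 9.23 in ischemia. The groups were apart by a narrow gap, between control 4 and ischemia 1. The difference was -0.25 ± 0.07 (adjusted p = 0.334, limma), or 15.6% lower, and ran from -0.29 to -0.13 over the alternatives.

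Rps27l had levels of 4.95, 5.09, 5.004 and 4.89 in controls and 4.91, 4.81, 4.68 and 4.78 in ischemia. Ischemia 1 overlapped control 4. The difference was -0.19 ± 0.07 (adjusted p = 0.427, limma). Its core gene Rps27, a zinc-finger protein of the small subunit, differed by -0.09 ± 0.09 with overlapping groups.

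Rps29, another zinc-finger protein of the small subunit, had levels of 8.85, 9.05, 9.06 and 8.87 in controls and 8.79, 8.82, 8.79 and 8.85 in ischemia. The groups were apart only between control 1 and ischemia 4. The difference was -0.15 ± 0.07 (adjusted p = 0.501, limma), and the other Rps29 probes gave -0.09 and -0.00. These probes carry coordinates on another chromosome than the RefSeq gene, and are among 11 of 188 member probes with a position for which this holds.

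**Figure D3:**
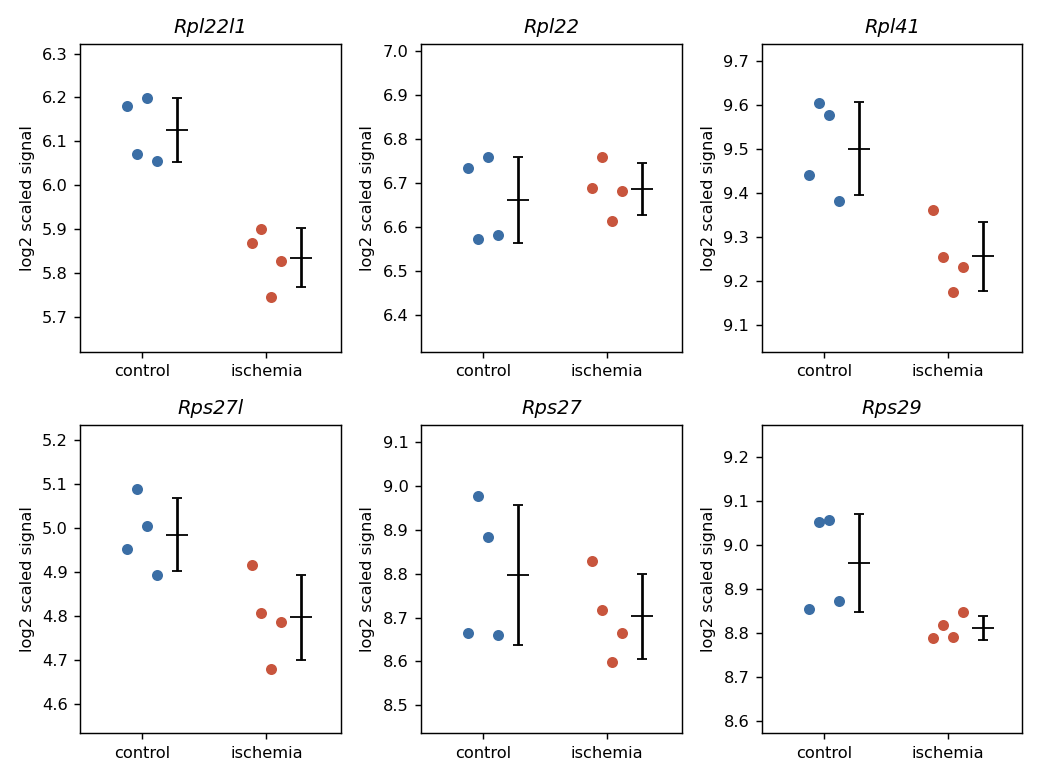
Log2 scaled signal of 6 ribosomal protein genes on each array (points) with the group mean and SD (black, n = 4); all panels span the same log2 range. Rpl22l1, Rpl41 and Rps29 have no overlap between the groups, while Rpl22, Rps27 and Rps27l overlap.

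Rpl7a, a large-subunit protein, shows how far 1 gene's reading depends on the probe. Its main probe gave 7.99, 8.15, 7.99 and 7.93 in controls and 7.92, 7.88, 7.92 and 7.63 in ischemia. Ischemia 4 was the low array, and the groups were apart by less than 0.01. The difference was -0.18 ± 0.09 (adjusted p = 0.518, limma). Its other 3 probes gave -0.11, -0.06 and -0.02, all with overlapping groups. The probe at -0.06 had an SE of 0.17 and was low on both arrays numbered 3. It read 7.08 on control 3 and 7.01 on ischemia 3, against 7.47 to 7.72 on the other arrays. The probe at -0.11 is listed at the same mm9 position, chr2:26768759-26768818 on the plus strand, and differs from the main probe at the 6 bases in capitals. The main probe is the upper line.
Rpl7a main probe: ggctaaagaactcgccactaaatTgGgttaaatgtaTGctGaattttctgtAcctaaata
Rpl7a other probe: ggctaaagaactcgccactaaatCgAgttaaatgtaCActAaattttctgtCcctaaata

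Other lower members had overlapping groups. Rps18, at the head of the small subunit, differed by -0.14 ± 0.08, Rpl9 by -0.14 ± 0.09, and Rpsa, which is also the laminin receptor, by -0.12 ± 0.07. The P-stalk genes, whose proteins recruit elongation factors, stood close together: Rplp0 at -0.10, Rplp1 at -0.09 and Rplp2 at -0.08. Under quantile normalization Rplp0 turned to 0.03 and Rplp2 to 0.01, while Rplp1 was at most -0.01 over the alternatives. None of these passed (limma).

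Several other members are known for roles outside the ribosome, and their values ran from -0.10 to -0.01. Rpl5 and Rpl11, which bind Mdm2 when ribosome assembly is disturbed, differed by -0.01 and -0.08. Rps6, the substrate of S6 kinase, differed by -0.01, and Rps19, mutated in Diamond-Blackfan anemia, also by -0.01. Rps3, which also acts in DNA repair, gave -0.06 and Rps27a, made as a fusion with ubiquitin, -0.05. Rpl13a, known from the control of inflammatory mRNAs, gave -0.10. Among these, the signs of Rpl5, Rpl11, Rps6, Rps19, Rps27a and, averaged over its probes, Rpl13a turned under at least 1 alternative, as did that of Rps3 without single arrays.

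In 9 members the difference was above zero, and in 0 of these were the groups separated. Among them were Rps3a at 0.06 ± 0.07 and Rpl21 at 0.05 ± 0.07. Rpl24, Rpl23a, Rpl32 and Rpl26 were at 0.03, 0.02, 0.02 and 0.00. The signs of Rpl23a, Rpl32 and Rpl26 turned in 3, 3 and 9 of 22 alternatives, among them single arrays left out. These all had adjusted p of 0.803 or more (limma).

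Probes of 1 gene did not always give 1 sign. Of the 57 genes with at least 2 measured probes, 16 had probes on both sides of zero. Counted by probe, 0 of 183 passed after adjustment (0.00369% of all probes did), and at an unadjusted limma p under 0.05 1 was higher (3.3% of all) and 5 were lower (6.45% of all). The groups were apart for 1 higher probe (2.29% of all) and 5 lower ones (3.68%), and 151 of 183 probes were below zero (82.5%, against 55.2%). The higher one was a dim probe of Rps15a at mm9 chr7:125248322-125248381, with a level of -1.45 on average in controls and -1.15 in ischemia. Its groups did not overlap, and its difference was 0.30 ± 0.07 (adjusted p = 0.321, limma). The other 2 Rps15a probes lie at higher coordinates on the same minus strand and gave -0.04 and -0.11.

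Shared sequence limits what a probe can be said to measure. Among members, 23 probe pairs shared at least 20 bases, and all 23 were pairs within 1 gene. Outside the family, 152 probes shared at least 20 bases with a probe of 48 member genes, and 148 of these were well above background on all 8 arrays. The probes of Rpl41, Rps27l and Rps21 shared such a run with no probe outside the family.

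The level of the family differed more between single control arrays than between the groups. The median deviation of the 81 genes from their own means was -0.04, 0.12, 0.12 and -0.08 on controls 1 to 4, and 0.02, -0.03, -0.03 and -0.06 on ischemia 1 to 4. Controls 2 and 3 stood high: 77 and 75 of 81 members were above their own mean there, against 21 and 9 on controls 1 and 4. In ischemia the counts were 51, 19, 27 and 8. Controls 2 and 3 are also the arrays with the lowest 75th percentile, and the part of that in the family's level was not tested.

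**Figure D4:**
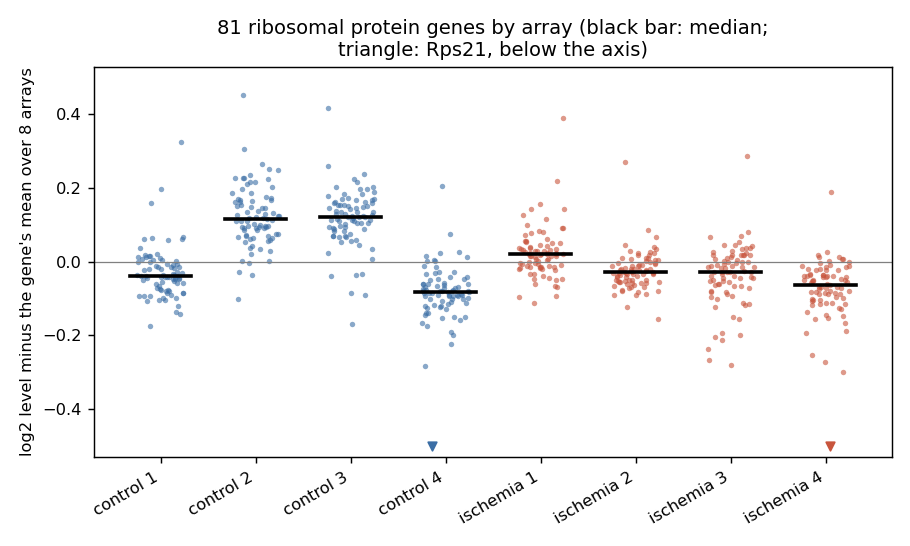
Log2 level of each of the 81 measured genes minus its mean over the 8 arrays (points), with the median as a black bar; a triangle marks Rps21, which lies off the axis on control 4 and ischemia 4. The family stands above its mean on control 2 and control 3 (medians of 0.12 and 0.12), and the other 6 medians lie between -0.08 and 0.02.

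The members varied more within the control group than within the ischemia group at this scaling. The SD was larger in controls for 76 of 81 members (93.8%, against 49.8% of all genes), with a median SD of 0.12 in controls and 0.05 in ischemia. It was larger for 78 members with scaling to the median (96.3%, against 61.6% of all genes) and for 69 with normexp background correction (85.2%, against 51.0%). With quantile normalization it was larger for 43 (53.1%, against 48.3%), so the pattern depended on the scaling. Quantile normalization can reduce a shift shared by bright probes, as most member probes are, and where the pattern comes from was not tested. At the 75th percentile scaling the control SD was also larger for 66.7% of the genes named for mitochondrial ribosomal proteins (Mrpl and Mrps symbols). It was larger for 68.4% of the translation factors and other genes with TOP mRNAs. Of the 4 components that the naming rule leaves out, it was larger for 3. The share was 50.0% for RNA polymerase I genes, 34.3% for ribosome assembly factors and 28.6% for genes of initiation and mTORC1 signalling. The members are not independent of each other, and the difference in spread was not tested.

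**Figure D5:**
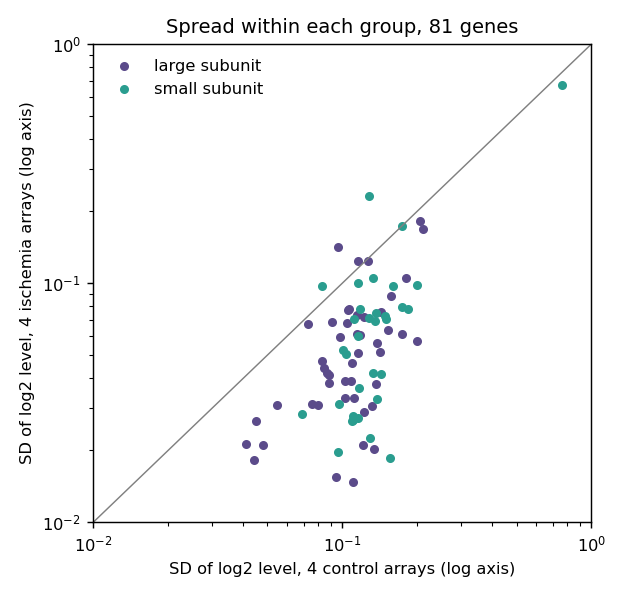
SD of the log2 level over the 4 control arrays and over the 4 ischemia arrays for each of the 81 genes, both on log axes, with a grey line of equality. With the 75th percentile scaling 76 points lie under the line; with quantile normalization the control SD was larger for 43 genes.

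A few probes followed the array number in place of the group. Rps21, a small-subunit protein with 1 probe, had levels of 6.50, 6.63, 6.60 and 5.07 in controls and 6.57, 6.45, 6.47 and 5.15 in ischemia. Both arrays numbered 4 were low, and its difference was -0.04 ± 0.43. The probe lies at mm9 chr2:179993084-179993143. A probe of Rpl17 at mm9 chr18:75162851-75162910 gave 6.22, 6.47, 5.01 and 6.07 in controls and 6.27, 6.24, 4.99 and 6.08 in ischemia, low on both arrays numbered 3. The other 6 Rpl17 probes did not show this drop. Over all 27127 measured probes, such a drop of over 0.5 below all other arrays was seen for 84 probes (0.31%) on the arrays numbered 4 and for 56 (0.206%) on those numbered 3, against 2 and 1 for numbers 1 and 2. Smaller drops, as in 1 Rpl7a probe on the arrays numbered 3, are not in these counts.

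The Mrpl and Mrps genes, named for the mitochondrial ribosome, are a separate set. They were taken by symbol alone, and the role of each member was not checked. Of 78 measured, 0 passed (limma). At an unadjusted limma p under 0.05, 3 were lower (6.97% of all genes were) and 0 higher (3.49% of all genes were). The median difference was -0.06 against -0.02 for all genes, with 63 of 78 lower (55.5% of all genes were). The 2 with the smallest p were Mrps21 at -0.20 ± 0.07 and Mrps36 at -0.18 ± 0.06, both with separated groups. The median was 0.00 at its highest over the alternatives. Of 4 measured components that the naming rule leaves out, 0 passed. They included Rpl36al at -0.07 ± 0.06 and Rack1, the kinase scaffold of the small subunit, at -0.09 ± 0.08.

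Genes that act with the ribosome showed no common direction, where 55.5% of all genes were lower. Translation factors and other genes with TOP mRNAs, such as Npm1 and Tpt1, had 12 of 19 lower and 0 passing, with a median of -0.03. Hnrnpa1, an RNA-binding protein in this list, was at -0.19 ± 0.07 and Eif4b, a helicase cofactor, at 0.20 ± 0.07. Of 14 genes of RNA polymerase I, which makes ribosomal RNA, 8 were higher and 0 passed, with a median of 0.04. Its subunit gene Polr1b was at 0.17 ± 0.07 with separated groups, and Taf1c, of its promoter factor, at 0.15 ± 0.08.

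Of 35 ribosome assembly factors, 19 were higher, 16 lower and 0 passed, with a median of 0.01. Utp15, of the small-subunit processome, had levels of -2.11, -2.19, -2.01 and -1.80 in controls and -1.76, -1.75, -1.65 and -1.75 in ischemia, a difference of 0.30 ± 0.09 (adjusted p = 0.328, limma). Ltv1, a late assembly factor of the small subunit, was at -0.19 ± 0.08. Of 21 genes of initiation and mTORC1 signalling, 10 were higher and 0 passed, with a median of -0.01. Eif2s1, the initiation subunit phosphorylated under stress, was at -0.17 ± 0.07, and Eif4ebp2, the repressor of cap binding that is common in brain, at 0.26 ± 0.11.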

How the data were processed

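The array files hold intensities that the authors deposited from Agilent Feature Extraction 10.7.3.1 (named in the submitters' processing notes), per the file headers: a background-corrected processed signal per spot, and mean and local background signals. Per the labels, 50 ng of RNA was labelled with Cy3. The authors' deposited value table is a ratio, equal on test to the processed signal times 1 constant per array, and served as an alternative. What the constant stands for is not known here.

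Control spots and 26 probes with outlier flags were left out and spots of a probe averaged. A probe was kept when well above background on at least 4 of 8 arrays, which left 27127 probes. The kept probe with the highest mean stood for each of 19745 genes. Groups were compared with limma 3.58.1 in R 4.3.3. On simulated data for this comparison with 19745 genes, 53.7% of changes of 0.5, 88.1% of 1 and 93.9% of 2 (log2) were called. There were 4 false calls. The simulation changed 67, 67 and 66 genes by these sizes, with independent noise. That many true changes make the adjusted threshold easier to pass, so the shares do not carry over to a lone change. Changes as small as those of the members (-0.29 to 0.08) were not simulated. The number of arrays limits the precision. Members, lists and pairs were chosen with earlier results of these data known. Named were the 8 higher and 8 lower members with the smallest p, paralog pairs, P-stalk genes, members with known outside roles, genes whose probes disagree in sign with an unadjusted p under 0.05, and 2 per list; others were named after their values were seen. Of these, 1 member is not reported here by name, though the counts include it. No outside list was tested as a set. Alternatives covered background correction, scaling, filters, probes, variance, threshold, replicate block and each array left out.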

Additional observations from a re-analysis of the deposited data

Results flagged for a closer look

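Of 90 sets of 4 arrays checked (the named and described genes in each group), 6 held 1 array far from the other 3, where chance gives about 1 in 20, or 4.5. The gap of that array to its nearest neighbour is given as a share of the whole range; the limit was Dixon's critical value for 4 values. The part of any cause in these was not tested.

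Rps21 was low on control 4 (0.917 of the range) and on ischemia 4 (0.914), and the Rpl17 probe described for its drop was low on ischemia 3 (0.848). These probes were picked for such a drop. Rpl7a was low on ischemia 4, with a share of 0.85. Rps15a was high on ischemia 3, with a share of 0.852. Rpl36a was high on ischemia 4, with a share of 0.971, in a group whose 4 levels ran only from 6.41 to 6.44.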

How the results depend on the processing

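None of the 23 alternatives called a ribosomal protein gene, and the 3 with the smallest p, Rpl22l1, Rpl41 and Rps27l, kept their sign in all 22 that gave them a value. Over all genes the 1 call became 2 with median scaling, 24 with trended and robust variance and 3 at an adjusted p under 0.1; it became 0 with normexp, quantile, family-centred scaling, no filter, probes above background on all 8 arrays, ischemia 1 and 4 or both arrays numbered 4 left out, and 0 to 1 with each array left out. The replicate number of the titles was tried as a block: it called 0 genes and left 0 members called. The correlations of deviations between same-numbered arrays were 0.08, -0.06, 0.29 and 0.39 for numbers 1 to 4. Of the control arrays 2 of 4, and of the ischemia arrays 2 of 4, correlated best with their own number. These values do not decide whether the numbers pair the pups. The labels name no pairs, so the main fit used none, and what numbers 3 and 4 share was not tested.
Members at an unadjusted p under 0.05 and lower went from 3 to 5 by probe, with normexp and with trended variance, and to between 2 and 6 with each array left out (6 without control 4); higher ones went from 0 to 1 by probe and with quantile. Members with separated groups and lower went from 4 to 1 with median scaling and quantile, 2 with family centring, 8 with normexp or without ischemia 1 and 4, and 11 without both arrays numbered 4 (4 to 11 with each array left out); higher ones went from 0 to 1 by probe, 5 with family centring and 7 with quantile (0 to 1 with each array left out). Groups of fewer arrays separate more easily for any gene, and these counts carry no share over all genes. The cause of these changes was not tested.
Under quantile normalization the sign turned for Rpl3 (0.0621), Rpl7 (0.0357), Rpl10 (0.0339), Rps4x (0.0088), Rplp0 (0.0293), Rplp2 (0.0109), Rps6 (0.0402), Rps27a (0.0535), Rpl5 (0.0209), Rpl11 (0.0217), Rps19 (0.0353), Rps15a (0.0315). Centring arrays on the median of the family (chosen after seeing the data) brings the family median near 0 by construction, so the signs it turned say nothing of stability: those of Rpl3 (0.0502), Rpl7 (0.0245), Rpl10 (0.0003), Rpl36a (0.0026), Rps4x (0.0155), Rps4l (0.0167), Rps6 (0.0512), Rps27a (0.0119), Rpl5 (0.047), Rps3 (0.0047), Rps19 (0.0505), Rps15a (0.0206). Under normexp the sign turned for Rpl26 (-0.0178), Rpl7 (0.0046), Rpl36a (0.0207), Rpl5 (0.0006), Rps19 (0.0032). With probes of a gene averaged the sign turned for Rpl26 (-0.0112), Rpl13a (0.0178), Rps15a (0.0497). Without both arrays numbered 4 (chosen after seeing the data) the sign turned for Rpl22 (-0.0007), Rpl23a (-0.0118), Rpl32 (-0.0061), Rpl26 (-0.0176). Leaving out each array in turn gave, for those whose sign turned, Rpl22 -0.0054 to 0.0564, Rpl23a -0.0072 to 0.048, Rpl32 -0.0171 to 0.0719, Rpl26 -0.0245 to 0.0306, Rpl3 -0.0252 to 0.01, Rps4l -0.11 to 0.0424, Rps6 -0.0448 to 0.0279, Rps27a -0.12 to 0.0232, Rpl5 -0.0467 to 0.0255, Rps3 -0.12 to 0.0243, Rps19 -0.042 to 0.0386, Rpl7l1 minus Rpl7 -0.0972 to 0.0132, Rpl36al minus Rpl36a -0.0418 to 0.0242, Rps4l minus Rps4x -0.075 to 0.0987. Rpl26 was at -0.005 without ischemia 1 and 4 and at -0.0014 in the authors' table. The pair Rps4l minus Rps4x was at -0.0466 under quantile and -0.0227 with probes averaged. Low brightness limits dim probes, such as the second Rps15a probe.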
